A study of Mus musculus with 14 samples.

Results

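Inhibitory type I2 of the mouse medial vestibular nucleus was compared with the inhibitory types I3a and I3b, to ask what separates the inhibitory types that are set against fast-spiking types in this series. The members are the 2 arrays labelled I2 and the 4 labelled I3a or I3b, 6 of the 14 arrays and 3 of the 7 pools analysed here, taken from the sample titles alone. Every pool, including the excitatory pools E1 and E2 and the inhibitory pools I1a and I1b used for reference, carries the same description: brainstem neurons from the mouse lines YFP-16, GIN and GlyT2-13 on a C57BL/6 background, aged 24 to 32 days. These lines mark neurons through the Thy1, Gad1 and Slc6a5 promoters, so a pool holds only cells that at least one reporter labelled, and the labels give neither the line of each cell nor the number of cells or animals in a pool. Per the labels, cDNA of single cells was amplified, the cells were sorted into types by their transmitter genes, ion channel genes and markers, and the cDNA of a type was pooled before it was hybridised to 2 arrays.

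The medial vestibular nucleus receives head-motion signals from the inner ear and controls gaze and posture, and its inhibitory neurons release GABA, glycine or both. Fast-spiking neurons fire brief action potentials at high rates with the help of Kv3 potassium channels, Nav1.1 and Nav1.6 sodium channels and the beta4 sodium channel subunit that Scn4b encodes. Peptides, presynaptic receptors and transcription factors distinguish slower inhibitory types, and these gene groups are compared here.

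Levels are log2 signals, on which 1 unit is a doubling, from a floor of 2.387 to a maximum of 15.9, and 15.1% to 16.4% of the probe sets of an array reached 5. A gene was compared when at least 1 of the 7 types had a mean of 5 or more, which 4409 genes did. Differences are the I2 mean minus the mean of the I3a and I3b pools. The 2 arrays of a pool are technical replicates, so that their spread (SD 0.19 for I2, 0.29 for I3a, 0.24 for I3b) holds no difference between animals or cells. In these pools, fewer cells that express a gene and less RNA per cell cannot be told apart. Bacterial control transcripts also differed: BioB read 7.69 and 7.79 on the I2 arrays, 9.45 and 9.79 on I3a and 9.13 and 8.44 on I3b, with differences of -1.35 for BioC and -1.05 for BioDn, and their part in the results was not tested.

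I2 was further from the I3 pools than these were from each other. The I2 and I3 means differed by 1 unit or more for 857 genes, against 466 for I3a and I3b, and the median absolute difference was 0.41 against 0.30. Over all kept genes, the signals of an I2 and an I3 array correlated at r = 0.858 to 0.884, those of an I3a and an I3b array at 0.937 to 0.943, and those of 1 pool at 0.981 to 0.992. These correlations are across genes, which are not independent replicates, and describe the arrays.

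For 393 genes (8.91% of those compared) both I2 arrays lay at least 1 unit from all 4 I3 arrays. I2 was the higher side for 243 of them (5.51%) and I3 for 150 (3.4%), and 210 and 184 after quantile normalization. That rescaling moved the median difference of all genes from 0.08 to -0.05. Without I3b the count was 773, and without I3a it was 569. Of the 857 genes whose means differed by 1 unit or more, 464 did not meet this rule, and for 37 of these the I2 arrays overlapped with the I3 arrays.

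**Figure D1:**
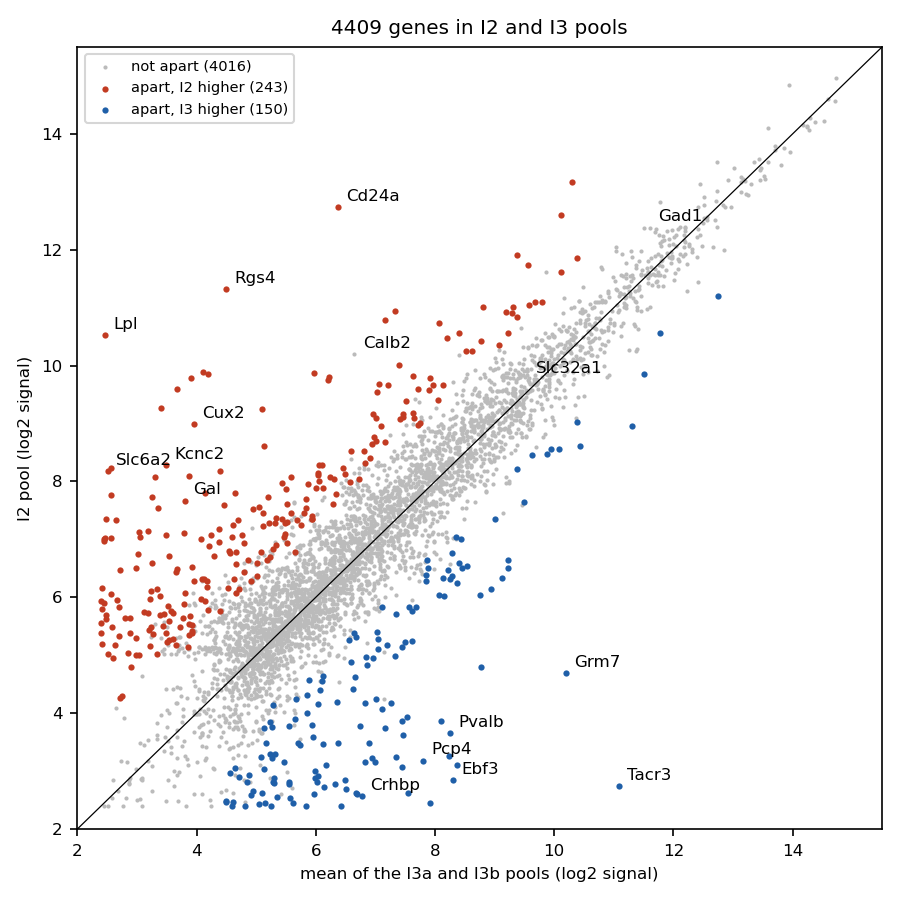
Each point is 1 of 4409 genes, with the mean of the I3a and I3b pools on the x axis and the I2 mean on the y axis, both as log2 signal; the line marks equal levels. Red points are the 243 genes and blue points the 150 genes whose I2 arrays lie at least 1 unit above or below all 4 I3 arrays; Tacr3 and Lpl lie farthest from the line.

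The other 4 pools show on which side the unusual level lay. Of the 243 genes that were higher in I2, 132 were at least 1 unit higher on both I2 arrays than on all 12 other arrays, and 7 were at least 1 unit lower on all I3 arrays than on the 10 others. Rgs4, Olfm3 and Cux2 met both rules, and 107 genes met neither. Of the 150 genes that were higher in I3, I2 was the lowest of all for 50 and I3 the highest of all for 21. Tacr3 met both, and 80 met neither. The rules are not equally strict, since one asks 2 arrays and the other 4 arrays to stand apart.

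On pool means, with 7 pools in 4 families and the single I2 pool assumed to vary like the pools of the other families, 27 genes (0.612%) passed an adjusted p under 0.05 and a difference of 1 unit in limma. I2 was higher for 17 (0.386%) and I3 for 10 (0.227%), and all 27 are among the 393 genes above. The split was 3 and 12 with a type mean of 7 required, 3 and 5 with a robust prior and 95 and 18 with no filter. The unadjusted p was under 0.05 for 707 genes. Without I1a or I1b 24 or 22 genes were called. None remained without E1, E2, I3a or I3b or in the 3 pools alone, where the smallest adjusted p in limma was 0.0938, 0.0955, 0.151, 0.0901 and 0.166 and 607, 608, 503, 729 and 644 genes had an unadjusted p under 0.05. On arrays, where the error is technical and the test compares these pools and not cell types, limma called 844 genes (19.1%), 535 (12.1%) higher in I2 and 309 (7.01%) higher in I3; quantile normalization gave 432 and 365.

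Among the 17 genes called higher in I2 are a transporter gene, genes of secreted proteins and signalling genes. Slc6a2, the noradrenaline transporter of the plasma membrane (chr8:92960470-93001667 in GRCm38.p6), read 8.12 and 8.25 on the I2 arrays, 2.53 and 2.47 on I3a and 2.52 and 2.52 on I3b. Both I2 arrays were far above all others of the series, whose pool means ran from 2.46 to 3.23. The difference was 5.68 (SE 0.53, adjusted p = 0.0286 in limma on pool means), or 3.18 when values under 5 were set to 5. Other genes that make or carry monoamines, noradrenaline included, did not go with it. Th, Ddc, Slc6a4 and Tph2 were under 3 in all 3 pools. Dbh, which turns dopamine into noradrenaline, was at 5.68 in I2, 5.60 in I3a and 6.09 in I3b.

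Pappa, a secreted protease that cleaves binding proteins of insulin-like growth factor (chr4:65124174-65357509), was at 8.18 and 8.28 in I2, 2.79 and 2.46 in I3a and 2.51 and 2.51 in I3b. Only I2 stood above the floor range, with a difference of 5.66 (SE 0.44, adjusted p = 0.0286 in limma). Igf1, a growth factor in the same system, showed the opposite order: 2.45 and 2.45 in I2, 6.18 and 6.56 in I3a, 9.42 and 9.49 in I3b. I3b was above I3a by 3.08 units and both were above I2, but the difference of -5.47 was not called (adjusted p = 0.242 in limma). The binding protein gene Igfbp5 was also highest in I3b, at 6.49 and 6.78, against 2.87 and 2.89 in I2 and 3.64 and 4.06 in I3a.

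The other called genes with the smallest adjusted p in I2 were Rgs5, Zg16 and Gal. Rgs5, which speeds the shut-off of G proteins (chr1:169655501-169695813), read 7.30 and 7.41 in I2 and 2.46 to 2.49 on the 4 I3 arrays, a difference of 4.87 (SE 0.43). Zg16, a lectin-like secretory protein, read 8.11 and 8.06 against 3.16 to 3.64, a difference of 4.77 (SE 0.36). Gal, the precursor of the neuropeptide galanin (chr19:3409915-3414544), read 7.52 and 7.82 against 3.61 to 4.07, a difference of 3.86 (SE 0.35). In each case both I2 arrays were above every other array of the series, and the adjusted p was 0.0286 in limma. The other 2 Zg16 probe sets differed by 1.5 and 0.09.

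Among the 10 genes called higher in I3, Grm7 had the largest difference. Grm7 encodes a presynaptic metabotropic glutamate receptor (chr6:110645349-111567230) and read 4.24 and 5.13 in I2, 10.57 and 10.67 in I3a and 9.84 and 9.73 in I3b. The E and I1 pools lay between 8.44 and 9.61, so that the I2 level was the lowest of the series. The difference was -5.52 (SE 0.57, adjusted p = 0.0365 in limma), or -5.13 with values under 5 set to 5. The other Grm7 probe sets were at the floor or at 2.53.

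I2 was likewise the lowest pool for Cadm1, a synaptic adhesion molecule, with 4.29 and 4.06 in I2 and 7.04 to 7.45 in I3 (difference -3.08, adjusted p = 0.0286 in limma). The pattern was the same for Cachd1, a membrane protein related to calcium channel alpha2delta subunits (-3.59, 0.0286), and for Prag1, a pseudokinase (-3.42, 0.0286). Spon1, which encodes the secreted matrix protein F-spondin, was instead highest in I3: 3.68 and 4.06 in I2, 7.70 and 7.70 in I3a, 8.47 and 8.58 in I3b, with the E and I1 pools at 4.46 to 5.38. Its difference of -4.24 was called (adjusted p = 0.0433 in limma), and the other 3 Spon1 probe sets differed by -2.42, -0.09 and -0.22.

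Further called genes were Kcnt2, Rnf207, Cux2, Egfl6, Pde7b, Galntl6, Pln, Tmem176a, Npnt, Rap1gap2 and Mfsd4a in I2 and Pou3f3, Masp1 and Dapk1 in I3, several of them named after their values were seen. Cux2, a homeobox transcription factor, read 8.94 and 9.05 in I2, 4.19 and 4.28 in I3a and 3.09 and 4.28 in I3b, with the E and I1 pools between 6.29 and 7.64 (difference 5.04, adjusted p = 0.0372 in limma). I2 was thus the highest and I3 the lowest family for this gene. Pln, which encodes the calcium pump inhibitor phospholamban, read 5.95 and 6.37 in I2 and at most 2.47 on the I3 arrays (3.75, 0.0483). Over 16 to 18 alternative fits the 27 genes were called in 4 to 12, and the adjusted p of Slc6a2 ran from 0.000121 to 0.168.

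The sequences before the first annotated start of 3 called genes and of Tacr3, which had the largest difference of all but was not called, are given, since promoters of both directions can then be set beside the transcription factors that differ. They hold the 250 bases upstream in RefSeq's annotation of GRCm38.p6, read 5′ to 3′ on the strand of the gene, with matches to 3 motifs in capitals: TCCCNNGGG for EBF factors, CAGATG for NEUROD1 and TGACAG for MEIS factors, each searched on both strands. Tacr3 (chr3:134828757-134829006, plus strand) holds 2 MEIS matches. Grm7 (chr6:110645262-110645511, plus strand, the first of 2 starts) holds 2 EBF matches, which overlap on opposite strands. Gal (chr19:3414545-3414794, minus strand) holds 1 EBF match, and Rgs5 (chr1:169655251-169655500, plus strand) holds no match in this window.
Tacr3: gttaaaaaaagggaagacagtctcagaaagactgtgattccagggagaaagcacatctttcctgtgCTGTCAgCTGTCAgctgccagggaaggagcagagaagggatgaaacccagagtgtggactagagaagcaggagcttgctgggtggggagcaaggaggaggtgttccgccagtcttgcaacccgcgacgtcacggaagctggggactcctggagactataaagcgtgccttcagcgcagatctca
Grm7: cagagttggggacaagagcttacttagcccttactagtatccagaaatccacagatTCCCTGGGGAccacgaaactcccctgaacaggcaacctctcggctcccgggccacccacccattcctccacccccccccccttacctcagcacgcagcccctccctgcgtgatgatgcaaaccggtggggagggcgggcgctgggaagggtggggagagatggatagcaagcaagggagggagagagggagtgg
Gal: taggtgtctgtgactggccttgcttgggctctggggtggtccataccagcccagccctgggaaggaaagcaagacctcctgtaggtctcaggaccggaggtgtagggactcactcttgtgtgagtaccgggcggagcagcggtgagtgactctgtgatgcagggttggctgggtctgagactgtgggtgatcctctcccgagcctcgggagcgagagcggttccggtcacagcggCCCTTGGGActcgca
Rgs5: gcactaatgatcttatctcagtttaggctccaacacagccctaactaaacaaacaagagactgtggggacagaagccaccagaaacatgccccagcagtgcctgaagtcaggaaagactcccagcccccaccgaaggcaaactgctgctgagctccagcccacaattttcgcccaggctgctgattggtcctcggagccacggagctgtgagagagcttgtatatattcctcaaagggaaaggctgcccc
The EBF letters occur in 7.09% of the 4751 windows of the compared genes, in 4.94% of those of the genes higher in I3 and in 11.4% of those higher in I2, against 5.6% of all 32851 promoter windows of this length. Overlapping EBF matches on both strands, as in Grm7, occur in 1.03% of the compared windows, 1.23% (2 windows) of the I3 set and 0.366% (1 window) of the I2 set, against 0.779% of all, so the order of the sets changes with the letters required. The NEUROD1 letters occur in 9.7% of the compared windows, 12.3% of the I3 set and 9.89% of the I2 set, against 14.4% of all. For the MEIS letters these shares were 13.8%, 14.8%, 12.5% and 15.9%. A match is a description of the letters only.

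The largest differences of all did not pass the test on pool means. Tacr3, the neurokinin 3 receptor gene (chr3:134829007-134934581), read 2.62 and 2.87 in I2, 10.86 and 10.73 in I3a and 11.37 and 11.39 in I3b. I2 lay near the floor, the E and I1 pools between 5.13 and 9.15, and I3 at the top of the series. The difference was -8.34 (SE 1.26, adjusted p = 0.0628 in limma), and a second probe set gave -5.26. Lpl, which encodes lipoprotein lipase, read 10.55 and 10.52 in I2 and 2.39 to 2.53 in I3, but E2 and I1b were also at 7.28 and 6.78 while E1 and I1a were at 2.40 and 2.49. Its difference was 8.07 (SE 2.37, adjusted p = 0.195 in limma).

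Rgs4, a second regulator of G protein signalling, read 11.33 and 11.30 in I2, 5.43 and 5.49 in I3a and 3.79 and 3.31 in I3b. The other pools lay between 7.93 and 9.95, so that I2 was the highest and I3 the lowest family (difference 6.82, SE 0.93, adjusted p = 0.0527 in limma). Reln, the secreted glycoprotein reelin, read 9.61 and 9.60 in I2 and 3.21 to 3.93 in I3. Pde2a, a phosphodiesterase that degrades cAMP and cGMP, read 9.83 and 9.73 against 3.77 to 4.08. Both stood highest in I2 among all pools, and their differences were 5.93 (adjusted p = 0.154) and 5.88 (0.0676) in limma. Cd24a differed by 6.36 between means, but I3b was at 9.57 and I3a at 3.16, so that most of this difference lay in 1 I3 pool.

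**Figure D2:**
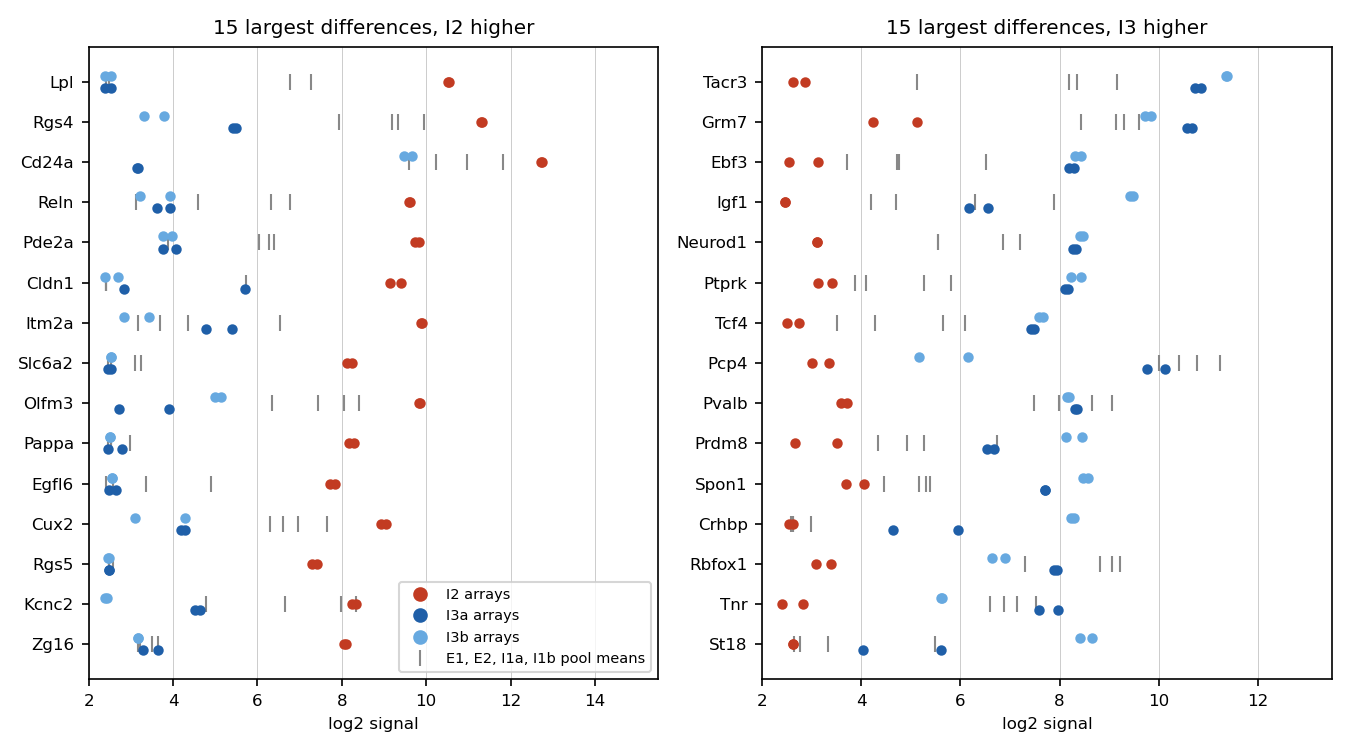
The 15 most different genes of each direction among those apart on all 6 arrays, as log2 signal on the x axis; coloured dots are single arrays and grey ticks the means of the 4 other pools. The 2 arrays of a pool lie close together for most genes; I3a and I3b are wide apart for Cd24a, Igf1, Pcp4, Crhbp and St18.

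Most genes of the fast-spiking channel list were lower in these types than in the rest by differing amounts, and some also differed between I2 and I3. Exceptions were Kcnc2, not lower in I2, and Kcnab1, not lower in the I3 pools, both given below. Channel genes, transmitter genes and markers entered the authors' sorting of cells. The levels of these lists, and of any gene used as a marker, are therefore not independent of the type names. Scn4b read 2.66 and 3.02 in I2, 4.44 and 4.01 in I3a and 2.73 and 2.91 in I3b, against pool means of 7.45 to 10.15 elsewhere. Scn1a, which encodes Nav1.1, was at 10.71 and 10.85 in I2 and 10.22 to 10.80 in I3, close to the 10.96 to 11.47 of the other pools. Kcna2 was at 8.07 in I2 and 7.86 to 8.42 in I3, with the other pools at 8.72 to 9.83. Kcna1, a Kv1 gene, had pool means of 6.40 in I2, 5.72 in I3a and 5.26 in I3b against 8.46 to 10.02 elsewhere, and Scn8a, which encodes Nav1.6, had 6.76, 7.82 and 7.64 against 8.70 to 9.65. All 3 pools were thus below the other 4 for these 5 genes, but on every array Scn4b lay under 5 and the others above 5.

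Of the 8 members kept, limma on arrays called 1 higher in I2 and 2 higher in I3 (12.1% and 7.01% of all genes), none was called on pool means (3 at an unadjusted p under 0.05), and the median difference was -0.37 against 0.08 for all genes. Kcnc2, a Kv3 channel gene, read 8.33 and 8.23 in I2, 4.65 and 4.51 in I3a and 2.43 and 2.39 in I3b. I2 was at the level of I1b (8.34) and E1 (7.97), and I3b at the floor (difference 4.78, adjusted p = 0.237 on pool means). Kcnc1, a second Kv3 gene, was lowest in I2, at 8.56 and 8.62 against 9.47 to 9.88 in I3 and 10.27 to 10.80 elsewhere (-1.11, adjusted p = 0.174). Kcnab1, an accessory subunit of Kv1 channels, read 2.91 and 2.91 in I2, 6.54 and 6.87 in I3a and 4.97 and 5.74 in I3b (-3.12, adjusted p = 0.363). Scn8a differed by -0.97, and Kcna1 by 0.91.

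**Figure D3:**
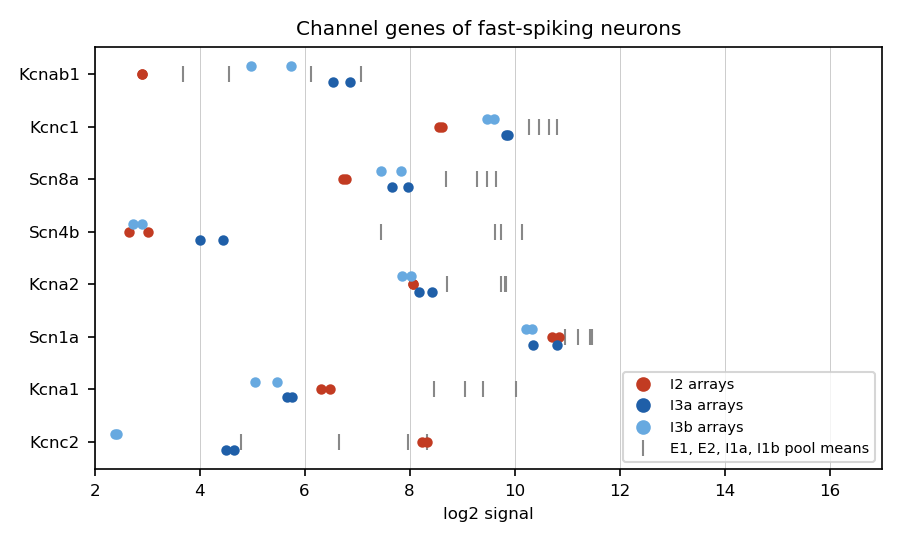
Log2 signal of the 8 kept channel genes of the fast-spiking list, sorted by difference; dots are the 6 single arrays and grey ticks the means of E1, E2, I1a and I1b. Only for Scn4b do all 6 dots lie below 5; for Kcnc2 the I2 dots lie with the highest grey tick.

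Other channel lists held differences in both directions. Of 17 other potassium channel genes, 6 were called higher in I2 and 1 higher in I3 by limma on arrays (12.1% and 7.01% of all genes), with a median difference of 0.56. Kcnt2, a sodium-activated potassium channel gene, was also called on pool means: it read 7.51 and 7.59 in I2, 2.40 and 4.13 in I3a and 3.29 and 3.59 in I3b, and was at 2.40 or lower in the other 4 pools (4.20, adjusted p = 0.0294). The 2 I3a arrays disagreed by more than 1 unit here. Kcnq3, which carries M-type potassium current, differed by 2.08 with its brighter probe set and by -0.79 with the other. Of 11 sodium channel and partner genes, Fgf13 (2.16) and Fgf12 (1.66), which encode intracellular partners of sodium channels, were the 2 called on arrays, both higher in I2 (12.1% of all genes). Among single genes of smaller lists, Cacna2d3, a calcium channel subunit gene, differed by 2.37, Trpm3, a cation channel gene, by -2.61 and the neurofilament gene Nefm by -2.02. These differences lay mostly at low levels: with values under 5 set to 5 they were 0.04, -0.18 and -0.32.

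Transmitter genes separated the types little. Slc32a1, which loads GABA and glycine into vesicles, was at 9.78 and 9.74 in I2 and 9.43 to 9.65 in I3. Gad1 and Gad2, which make GABA, differed by 0.77 and -0.26, and Slc6a5, the neuronal glycine transporter, by -0.07. The Gad1 difference lay in 1 I3 pool, with means of 12.38 in I2, 12.36 in I3b and 10.86 in I3a. Of the 7 kept members, the only one called on arrays, higher in I3 (7.01% of all genes), was Slc17a6, the vesicular glutamate transporter VGLUT2. It read 6.94 and 6.92 in I3a, 3.16 and 3.06 in I2 and 3.32 and 3.06 in I3b, so that I2 and I3b overlapped and only I3a stood apart.

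Of 10 kept genes of calcium-binding proteins, limma on arrays called 3 higher in I2 and 5 higher in I3 (12.1% and 7.01% of all genes), and the median difference was -1.37. Pvalb, the calcium buffer parvalbumin that marks many fast-spiking neurons, read 3.59 and 3.71 in I2, 8.36 and 8.32 in I3a and 8.16 and 8.19 in I3b. I2 alone was low, with the E and I1 pools at 7.49 to 9.05 (-4.60, SE 0.62, adjusted p = 0.0527 on pool means). Calb2, the related calretinin, did not separate I2 from I3 as families: it was at 10.25 and 10.14 in I2, 9.89 and 9.83 in I3b and 3.69 and 3.19 in I3a. Pcp4, a modulator of calmodulin, was lowest in I2 at 3.35 and 3.01, with 5.17 and 6.15 in I3b and 9.76 and 10.12 in I3a (-4.62). S100a10 was higher in I2, by 2.25, and Caln1 differed by -2.96.

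Single peptide genes were higher on either side, and the median difference of their list was 0.10. Besides Gal, the cholecystokinin precursor Cck was at 7.28 and 6.72 in I2 and 2.42 to 2.45 in I3 (4.56, adjusted p = 0.0918 on pool means), while I1a was at 4.80. The secretory-granule gene Vgf was lower in I2, at 6.11 and 5.98, than in I3a, at 8.01 and 8.04, and I3b, at 9.46 and 9.49. The enkephalin precursor Penk was above the low range in I3b alone, at 5.79 and 6.53, while I3a (2.65) was at the level of I2 (2.64). Of 12 kept peptide genes 2 were called higher in I2 and 2 higher in I3 on arrays (12.1% and 7.01% of all genes). Of 5 kept genes on the peptide receptor list, Tacr3 and Crhbp, the binding protein of corticotropin-releasing hormone, were called higher in I3 on arrays (7.01% of all genes). Crhbp was at 2.61 and 2.53 in I2, 4.63 and 5.96 in I3a and 8.30 and 8.24 in I3b, and under 3 in the other 4 pools.

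Several receptors for fast inhibition were higher in I2. Of 11 kept genes on the GABA and glycine receptor list, limma on arrays called 5 higher in I2 and 2 higher in I3 (12.1% and 7.01% of all genes). The median difference was 0.84. The list also holds Gphn, Slc12a2 and Slc12a5, which do not encode receptors, and the 2 higher in I3 were Gphn (-1.26) and Slc12a2 (-1.13). Gabbr1, a GABA-B receptor gene and not one of fast inhibition, was among the 5 (1.34). Glra3, a glycine receptor subunit gene, read 6.28 and 6.71 in I2 and 2.70 to 3.55 in I3 (3.51, adjusted p = 0.0527 on pool means). Glra2, the subunit prominent early in development, read 5.81 and 6.05 against 2.39 to 2.41 (3.54, adjusted p = 0.119). Gabra2, a GABA-A receptor subunit gene, read 7.76 and 7.43 in I2, 5.86 and 5.82 in I3a and 2.75 and 3.43 in I3b. All 3 genes were thus above both I3 pools on every array. Among receptors for monoamines and acetylcholine, Htr7, Chrna4 and Chrna7 were higher in I2, by 1.80, 1.63 and 1.5, and Htr2c and Htr1d differed by -1.28 and -1.49. The last 2 differences lay mostly in I3a. Htr2c was at 7.03 in I2, 8.98 in I3a and 7.64 in I3b, and Htr1d at 2.60, 5.41 and 2.78. Among glutamate receptors other than Grm7, Gria4 (1.5) and Grik3 (1.58) were higher in I2 and Gria3 (-1.22) and Shisa6 (-1.86) in I3. Shisa6, an AMPA receptor partner, was at 5.94 in I3b, but at 2.56 in I3a and 2.39 in I2. The E and I1 pools were at 5.32 to 5.80, near the I3b level.

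Of 14 kept G protein signalling genes, Rgs4 and Rgs5 included, 5 were called higher in I2 and 3 higher in I3 on arrays (12.1% and 7.01% of all genes). Rgs20 was at 2.42 and 2.39 in I2, 6.64 and 6.80 in I3a and 5.88 and 6.40 in I3b (-4.03, adjusted p = 0.0527 on pool means). Gng4, a G protein gamma subunit gene, was at 3.88 and 3.84 in I2, 7.04 and 6.59 in I3a and 8.11 and 8.07 in I3b (-3.59, adjusted p = 0.0877). Neither gene overlapped between I2 and I3, and the E and I1 pools reached 4.59 for Rgs20 and 4.66 for Gng4.

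Transcription factors were the list with the most negative median among those with over 10 kept genes. The list does not hold Cux2, the homeobox gene called higher in I2 on pool means. Of 24 kept members, limma on arrays called 14 higher in I3 and 7 higher in I2 (7.01% and 12.1% of all genes). On all arrays, 11 and 4 were apart by 1 unit (3.4% and 5.51% of all genes), and the median difference was -1.63. Ebf3, a factor of early neuronal differentiation, read 2.54 and 3.13 in I2, 8.19 and 8.29 in I3a and 8.31 and 8.43 in I3b, with the other pools at 3.70 to 6.51 (-5.47, SE 0.78, adjusted p = 0.0539 on pool means). Neurod1, a neurogenic bHLH factor, read 3.11 and 3.11 in I2 and 8.27 to 8.48 in I3 (-5.26, adjusted p = 0.0638). Tcf4, a bHLH partner protein, read 2.50 and 2.75 in I2 and 7.43 to 7.66 in I3 (-4.92, adjusted p = 0.125). For all 3, I3a and I3b lay within 0.17 units of each other, I2 was the lowest pool and the I3 pools were the highest.

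Other factors split the I3 pools. Prdm8 was at 6.68 and 6.53 in I3a and 8.14 and 8.45 in I3b, and St18 at 5.61 and 4.04 in I3a and 8.41 and 8.66 in I3b, with I2 at 2.62 for St18 and up to 3.51 for Prdm8. Among the 3 pools compared, Zic1 and Pbx3, picked after their values were seen, were high in I3a only. Zic1 read 8.20 and 8.24 there and Pbx3 7.22 and 7.32, and both were under 4 in I2 and I3b. Zic1 was not particular to I3a in the series, with means of 8.28 in E1, 9.85 in E2, 7.92 in I1b and 3.63 in I1a. In the other direction, also picked afterwards, the homeobox gene Meis2 was at 12.61 and 12.60 in I2 and 9.90 to 10.34 in I3, and the bHLH gene Nhlh2 at 6.70 and 6.73 against 2.98 to 4.52. I2 was the highest of the 7 pools for both. Pou3f3, a POU homeobox gene, was the list's 1 member called on pool means, where 0.227% of all genes were called higher in I3. It was at 3.59 and 2.72 in I2 and 6.62 to 7.43 in I3 (-3.85, adjusted p = 0.0433 in limma). Of 2 kept Hox genes, Hoxb3 differed by -1.99.

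**Figure D4:**
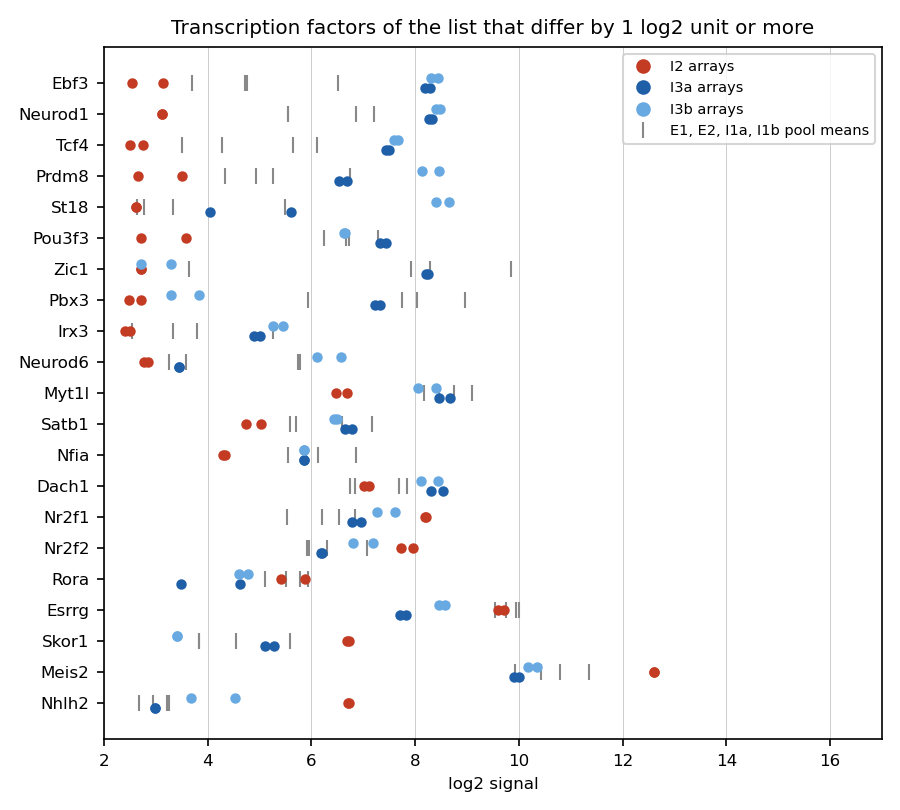
Log2 signal of the 21 transcription factors of the list whose means differ by 1 unit or more, sorted from the most negative difference; dots are single arrays and grey ticks the other 4 pool means. Ebf3, Neurod1 and Tcf4 have I2 at the left and both I3 pools together at the right, and Meis2 and Nhlh2 have I2 at the right of all pools.

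Guidance and adhesion lists held genes higher on either side. Of 19 kept axon guidance genes, limma on arrays called 6 higher in I2 and 2 higher in I3 (12.1% and 7.01% of all genes). Dcc, the netrin receptor, read 7.06 and 6.98 in I2 and 2.45 to 2.88 in I3 (4.46, adjusted p = 0.0624 on pool means). The ephrin receptor Ephb1 (3.95), the ephrin Efnb2 (3.48) and Sema3c (3.72) were also higher on both I2 arrays than on all I3 arrays, and Sema3a was lower (-3.71). Of 32 adhesion genes, 9 were called higher in I2 and 7 higher in I3 against the same shares, with a median of 0.50. Cntn4, a contactin, was at 5.92 and 6.01 in I2 and 2.39 to 3.31 in I3, and Pcdh10, a protocadherin, differed by 2.59. The synaptic organisers C1ql3 and Cbln1 differed by -2.79 and -2.75. C1ql3 was at 2.55 in I2, 4.75 in I3a and 5.95 in I3b, against 9.37 to 11.25 elsewhere, and Cbln1 at 2.81, 6.79 and 4.34. With values under 5 set to 5, the differences were 0.96 for Cntn4, 1.98 for Pcdh10, -0.50 for C1ql3 and -0.89 for Cbln1. The second probe sets of Cntn4 and Cbln1, both low, differed by -0.01 and -0.02.

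Genes of the perineuronal net, a matrix around many fast-firing neurons, gave opposite results. Tnr, a tenascin that links the net, read 2.39 and 2.83 in I2, 7.97 and 7.58 in I3a and 5.61 and 5.62 in I3b, and Bcan, a proteoglycan of the net, differed by -2.58. Ptprz1, a receptor phosphatase that anchors the net, was higher in I2, at 9.89 and 9.70 against 5.92 to 6.49. Of the 4 kept, 2 were called higher in I2 and 2 higher in I3 on arrays (12.1% and 7.01% of all genes). In the release list, Syt1 (2.66) and Synpr (2.52) were higher in I2 and Cplx1 (-1.21), Vamp1 (-1.12) and Rims2 (-2.37) in I3, but a second Rims2 probe set gave 1.65. The Syt1 difference lay mostly in I3a, with means of 10.73 in I2, 6.68 in I3a and 9.44 in I3b, and E2 was at 11.47.

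Housekeeping lists differed little. None of 64 respiratory chain, 17 ribosomal, 11 glycolysis and 9 heat shock genes differed by 1 unit, so none could be called. The respiratory chain differences ran from -0.63 to 0.46. Of 4 kept immediate early genes, Fos was at 2.82 and 2.79 in I2, 4.29 and 4.07 in I3a and 6.53 and 6.33 in I3b. Dusp1 differed by 1.41, mostly from I3a, with means of 8.22 in I2, 5.74 in I3a and 7.87 in I3b. Immediate early genes respond to recent activity and to tissue handling.

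**Figure D5:**
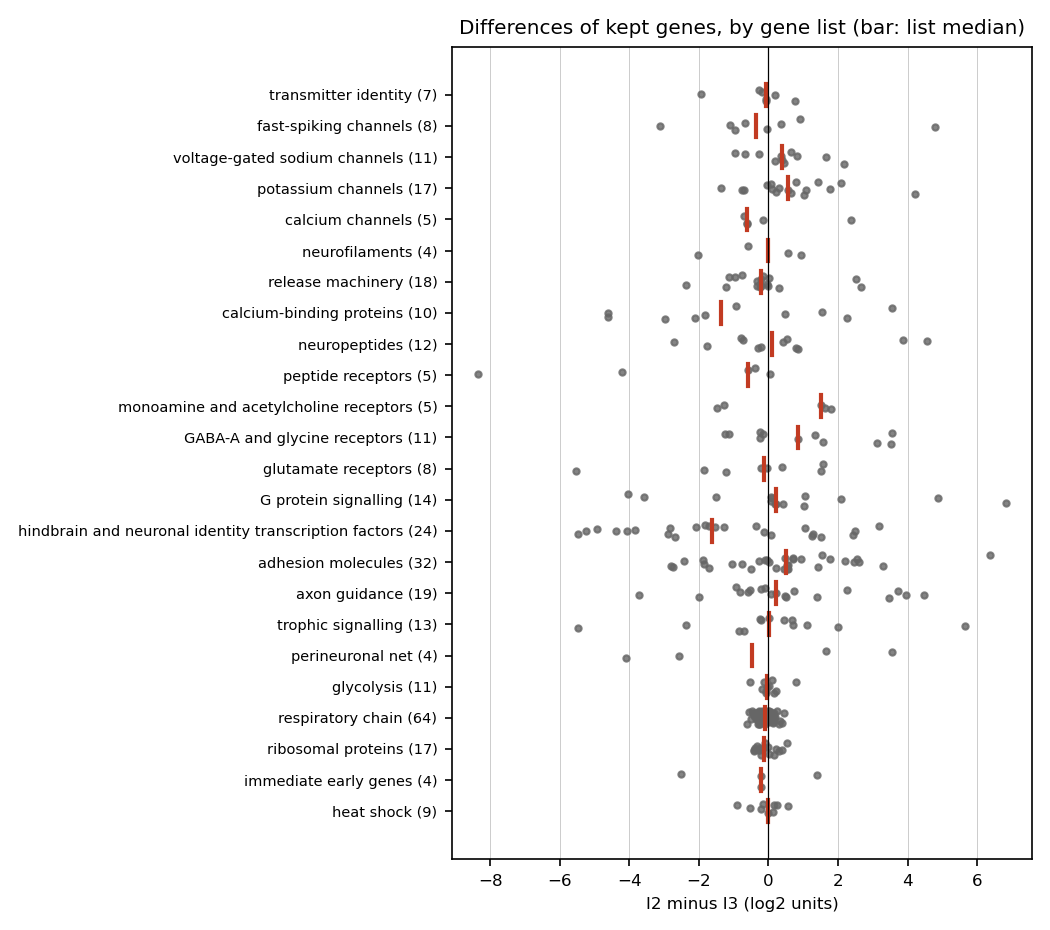
Difference I2 minus I3 in log2 units on the x axis for each kept gene of 24 lists; the number kept is in brackets and the bar is the list median. The metabolic, ribosomal and heat shock lists lie within 1 unit of 0, while the transcription factor list spans -5.47 to 3.17 with its median at -1.63.

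The labelled cell class held, with some exceptions among markers. The summed level of 3 neuron markers was 12.84 on both I2 arrays and 12.7 to 12.96 on the I3 arrays, and Rbfox3, which encodes NeuN, was lower in I3b (5.24 and 5.55) than in I2 (7.80 and 8.02) and I3a (8.23 and 8.51). All 4 microglia, all 4 endothelial, both cholinergic and both Purkinje cell markers measured were under 3 in all 3 pools, as were 5 of 8 astrocyte markers. The astrocyte markers Aldoc and S100b were at 5 or more in every pool, at 11.87 and 5.24 in I2 and at 11.92 and 5.52 as means of the I3 pools, and the list's summed level was 11.89 to 11.91 in I2 and 11.63 to 12.3 in I3. Of 8 oligodendrocyte markers, Cnp was at 9.0 and 9.27 and Mbp at 6.32 and 6.08 in I3a, the other 6 were under 3, and the summed level was 5.83 to 5.92 in I2 and 6.28 to 9.49 in I3. Of 4 granule cell markers, Neurod1 was the only one above 3. The part of other cells in the differences was not tested.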

How the data were processed

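Single-cell cDNA pools were hybridised to Affymetrix arrays, and the 6 arrays compared were read from a table of 14. The values are log2 signals deposited by the authors, made with affy and GCRMA per the submitters' processing notes; GCRMA models background from probe sequence and joins the probes of a set into 1 value after quantile scaling. Their versions were not given in the sources used here. GCRMA sets weak probe sets near a common floor, so a difference against a level near the floor depends on the background model. Arrays have no read depth, and their number limits the precision. Of 30843 probe sets, 64 are controls, 24034 have 1 symbol in the platform annotation, 477 several and 6268 none. Symbols were updated by Entrez identifier to RefSeq GRCm38.p6, which holds 23883 of them. Each of 16244 genes took its probe set with the highest mean over 14 arrays (5276 had several), and 4409 (27.1%) with a type mean of 5 or more were tested.

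R 4.3.3 with limma 3.58.1 (lmFit, eBayes with intensity trend, Benjamini-Hochberg) fitted 7 pool means in 4 families, with 3 residual degrees of freedom, and 14 arrays with 1 mean per type. Unless arrays are named, adjusted p-values printed beside a difference are limma's on pool means. The code was tested on simulated data. Replicate numbers mark technical repeats of 7 separate pools and did not pair samples: same-number deviations correlated at -0.04, 0.11 and -0.01 among the 3 pools. pandas 2.3.3 and matplotlib 3.10.9 made tables and figures.

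The members and gene lists were chosen with earlier results of these data known. Named genes are the 15 most different genes of each direction among those apart by 1 unit on all arrays, up to 5 per list with a difference of 1 unit, all transmitter and fast-spiking genes, and the 5 called genes with the smallest adjusted p in each direction; others are named as picked afterwards. Called genes with clone-type names (2) were counted and not named, and 1 further called gene is not reported here although the rule names it. Promoters come from a RefSeq table, which matched 18 of the 27 called genes. Alternatives changed the filter, scaling, floor, probe set choice, error model and the arrays or pools included.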

Additional observations from a re-analysis of the deposited data

How the results depend on the processing

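The count of 27 on pool means changed under most alternatives. Limma called 15 genes with a type mean of 7 required, 113 with no filter, 45 after quantile normalization, 48 with arrays centred, 102 with values under 5 set to 5, 16 with probe sets averaged, 71 without the intensity trend, 8 with a robust prior and 320 with arrays and the pool as a random block. Without I1a or I1b it was 24 or 22, and without E1, E2, I3a or I3b, or in the 3 pools alone, 0. Leaving out 1 array of every pool gave 0 to 11 genes; the 0, without replicate 2, had a smallest adjusted p of 0.0564 and 730 genes with an unadjusted p under 0.05. On arrays the count of 844 became 455 with the stricter filter, 562 with values under 5 set to 5 and 497 with probe sets averaged; a replicate block gave 842 and leaving out 1 array 809 to 878. The 393 genes apart became 235 with the stricter filter and 239 with probe sets averaged, 262 (180 higher in I2, 82 in I3) with values under 5 set to 5, 427 to 478 without 1 array, and, in an alternative added after seeing the data, 773 without I3b. Of 2817 alternative values of 160 genes (those named by rule, those called and list members differing by 1 unit), 10 changed sign; among genes differing by 1 unit or more these were Rbfox3, Pcdh11x and Cbln4, each when 1 I3 pool was left out. Limits: I2 is 1 pool, the spread within a type between animals was not measured, and 113 of the 243 and 100 of the 150 genes had their lower side under 5, where the array cannot resolve levels.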

Other observations

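Probe sets without a single gene symbol were left out of the comparison. Of these 6745, 502 had a type mean of 5 or more, and 29 of them were at least 1 unit higher and 10 at least 1 unit lower on both I2 arrays than on all 4 I3 arrays (7.77%, against 8.91% of the named genes).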
